A study of Rattus norvegicus with 6 samples.

Results

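Gene deserts are long stretches of genome without annotated genes. Outside CpG islands most CpGs of a mammalian somatic cell are methylated, and deserts are known as largely methylated, late-replicating sequence that can also hold distant enhancers. A DNA methyltransferase copies the mark to the new strand when a cell divides, and TET enzymes remove it by oxidation. Here a desert site is a CpG that the authors' annotation places outside promoters, exons, introns, CpG islands and island shores, and more than 500 kb from the nearest annotated transcript start. The rule uses position only and no methylation value. It chose 1881 of the 32674 nuclear CpG sites with annotation, which is 5.76%. A further 189 sites lay as far from a start but carried one of these flags (103 of them an intron flag) and were not counted.

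The samples were dorsal root ganglia, the ganglia that hold the cell bodies of sensory neurons and their glia, of male Sprague-Dawley rats of 8 to 9 weeks and about 220 g. In the SNL libraries (n = 3) the ganglia came 3 weeks after spinal nerve ligation, a model of neuropathic pain in which the L5 and L6 nerves of the left side are tied. In the Sham libraries (n = 3) they came 3 weeks after an operation without a ligature, which the labels place on the opposite side. The labels do not say which libraries come from separate animals, whether ganglia were pooled, or whether an SNL and a Sham library share a rat, so the spread between libraries may be technical in part and every p-value rests on it. Whole ganglia were used, so a change in the mix of cells and a change within a cell cannot be told apart. The assay gives no expression, so the tissue label was not checked against marker genes.

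Methylation was read by reduced representation bisulfite sequencing (RRBS), which reads MspI restriction fragments. The methylation level is the percent of reads that kept a C at the CpG. A T in a rat's own DNA at that position would read as an unmethylated C, and the rats' sequence was not checked. Coverage summed over CpG cytosines ran from 29420922 to 34293779 in the SNL libraries and from 27247702 to 32243538 in the Sham libraries. A read that covers several CpGs counts several times in this sum. At desert sites the median coverage was 225 reads per library, against 213 reads at all other annotated sites, and the lowest was 100. The median SD within a group was 2.24 percentage points per desert site and 2.15 points elsewhere. These depths cover counting error only, since PCR copies cannot be told from separate molecules.

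The desert sites were spread over all 21 chromosomes and 1205 windows of 1000 bp, 758 of which held 1 site. They were assigned to 467 nearest transcripts. The median distance to a start was 775 kb, the quartiles were 608 and 1100 kb, and the farthest site lay 3688.9 kb away. Upstream and downstream sites were about equal in number (968 and 913). Chromosome 2 held most of them (180), while on chromosome X they made up the largest share of the annotated sites of a chromosome, 22.6% (96 sites). The annotation is a list of transcript starts in the assembly rn4, so a desert means far from a listed start. Some such stretches hold genes of other kinds in mouse. In that species Adam6 lies among the variable segments of the immunoglobulin heavy chain and Dad1 beside the T cell receptor alpha locus. Both are nearest transcripts here, for called sites 1983.7 kb from Adam6 and 1853 and 1881.5 kb from Dad1.

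Desert sites were the most methylated of the intergenic classes. In SNL libraries 1, 2 and 3 their mean level was 80.89%, 79.39% and 78.93%, and in Sham libraries 1, 2 and 3 it was 81.2%, 81.68% and 82.2%. In each of the 6 libraries this was above the mean of intergenic sites 100 to 500 kb from a start, by 3.7 points ± 0.39 (SD over libraries). It was also above sites at 20 to 100 kb (6.04 ± 0.51 points), within 20 kb (9.71 ± 0.57 points) and all other annotated sites (13.72 ± 0.63 points). An exact two-sided sign-flip permutation test over the 6 libraries gave p = 0.031 for each of the 4 comparisons, the smallest p that 6 libraries allow, and the same after Benjamini-Hochberg adjustment over the 4. The level thus stepped up with each class of distance in SNL and Sham libraries alike.

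**Figure D1:**
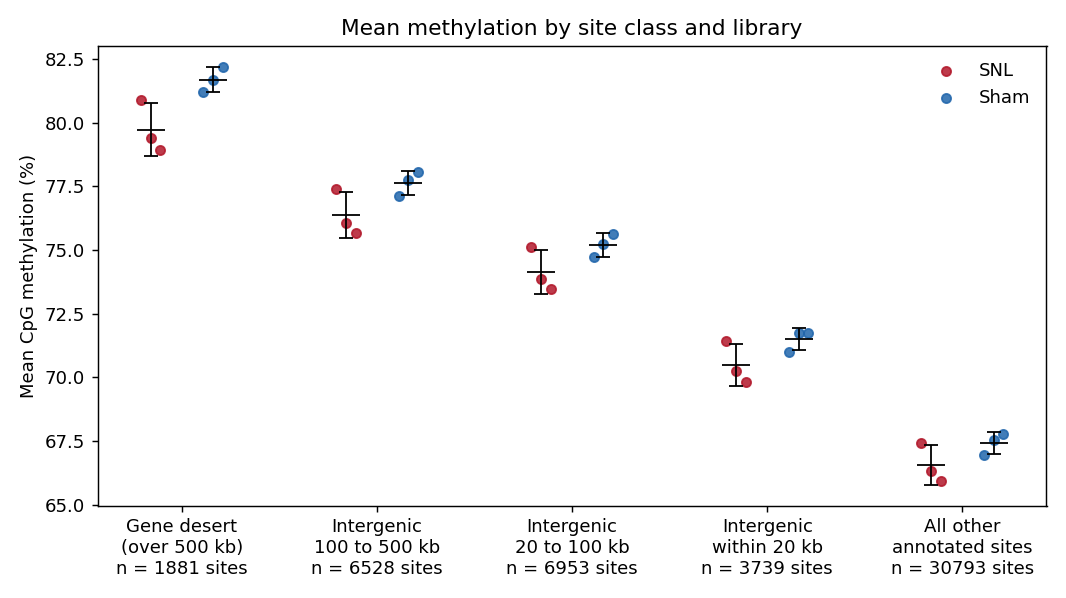
Mean CpG methylation in percent (the axis does not start at 0) over each class of annotated sites, with 1 point per library (SNL left, Sham right) and the group mean ± SD. Gene desert sites are highest in every library, and only there do all 3 SNL libraries (78.93 to 80.89%) lie below all 3 Sham libraries (81.2 to 82.2%).

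The desert mean was lower after SNL. It was 79.74% ± 1.02 in SNL and 81.69% ± 0.5 in Sham libraries (SD, n = 3 each), a difference of -1.96 points ± 0.66 (SE), with no overlap between the groups (exact two-sided permutation p = 0.1, the smallest that 3 against 3 can give, and 0.2 after adjustment over 5 classes). SNL 1 stood closest to the Sham libraries, just below Sham 1. The differences of the other classes were -1.27 points at 100 to 500 kb, -1.05 points at 20 to 100 kb, -1 point within 20 kb and -0.85 points over all other annotated sites. In those classes SNL 1 lay inside the range of the Sham libraries (exact p = 0.2 for each).

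The shift in the deserts was larger than the shift shared by the other sites. The gap between the desert mean and the mean of all other annotated sites, taken within a library, was 13.46, 13.06 and 13 points in SNL 1 to 3, against 14.27, 14.12 and 14.43 points in Sham 1 to 3. It was narrower after SNL by 1.1 points (SE 0.17), which is 13.17 ± 0.25 in SNL and 14.27 ± 0.15 in Sham libraries (SD, n = 3 each). Against intergenic sites at 100 to 500 kb the gap was 3.36 ± 0.12 in SNL and 4.05 ± 0.11 points in Sham libraries, a change of -0.68 (SE 0.09). For both, and for the 2 nearer intergenic classes (-0.91 and -0.96 points), all SNL libraries lay below all Sham libraries, and the exact two-sided permutation p was 0.1, the smallest possible, also after adjustment over the 4. A shift of equal points at all sites of a library cancels in these gaps, while one that varies with the level does not. The SD between libraries of a group was 0.07 to 0.27 points for the gaps, against 0.5 and 1.02 points for the desert means.

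**Figure D2:**
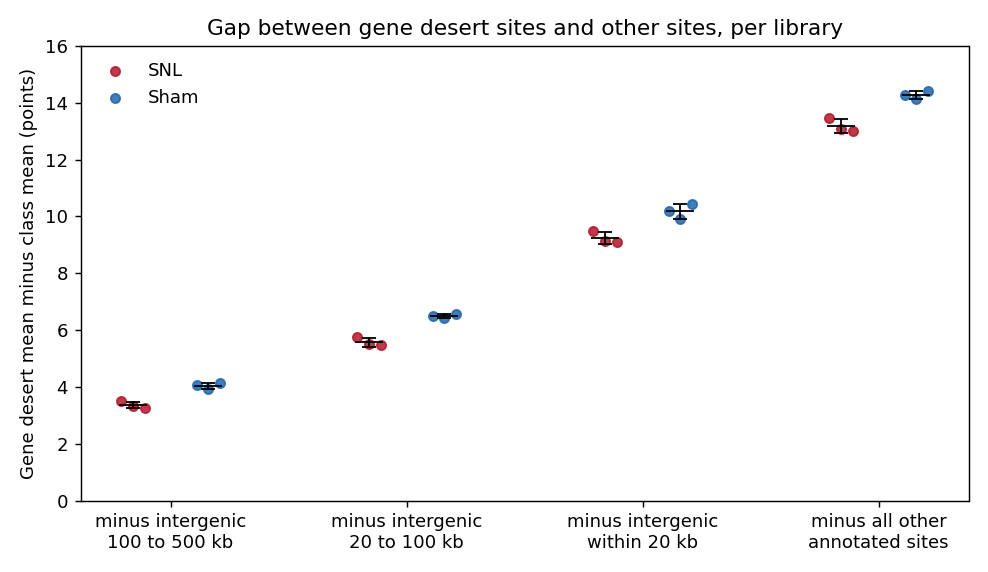
Gap in percentage points between the gene desert mean and the mean of each other class within a library, with 1 point per library (SNL left, Sham right) and the group mean ± SD. For each of the 4 classes the 3 SNL gaps lie below the 3 Sham gaps, for example 3.27 to 3.5 against 3.93 to 4.13 points for the class at 100 to 500 kb.

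A site at a low level has little to lose, and deserts hold few such sites. Only 54 desert sites (2.87%) had a mean level under 20% over all 6 libraries, against 16.3% of the other annotated sites. The comparison was therefore repeated among sites of like level. Between 50 and 80% the difference was -3.18 points at 432 desert sites and -1.63 points at 6803 other sites. Between 80 and 90% it was -2.54 points at 602 desert sites and -1.3 points at 6612 others, and above 90% it was -1.03 points at 699 and -0.51 points at 9588. In these 3 ranges the 3 SNL libraries lay below the 3 Sham libraries at desert sites but not at the others, and the difference of the changes was -1.55, -1.24 and -0.52 points (SE 0.33, 0.17 and 0.06). The exact permutation p was 0.1 for each, or 0.167 adjusted over the 5 ranges. Between 20 and 50% the values were -0.95 points at 94 desert sites and -0.79 points at 2767 others (difference -0.16, SE 0.37, exact permutation p = 0.9). Below 20% they were 0.63 and 0.09 points (difference 0.54, SE 1.04, exact permutation p = 0.8), so at these levels desert and other sites were not separated by more than the spread between libraries.

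**Figure D3:**
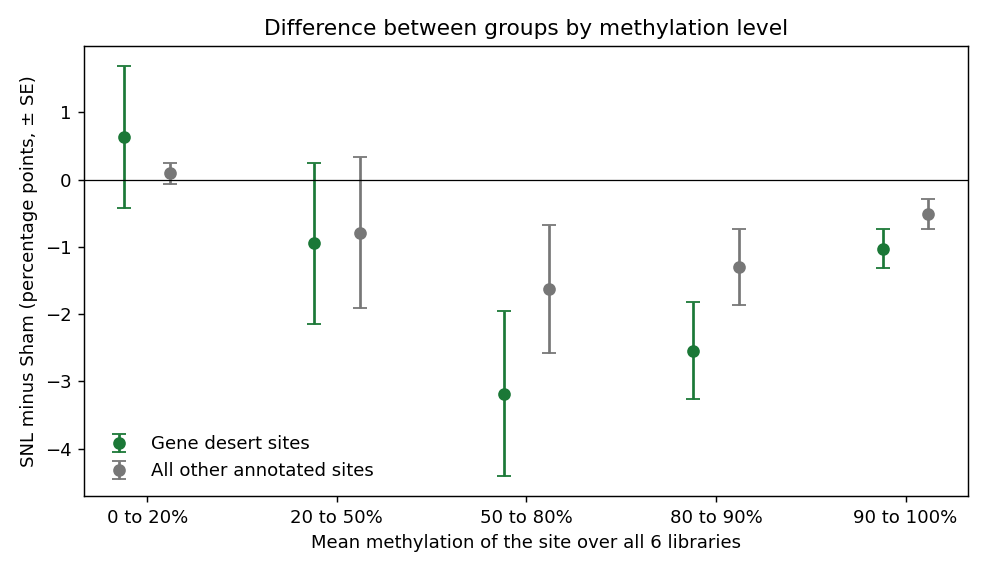
Difference in mean methylation, SNL minus Sham, in percentage points ± SE (n = 3 libraries each) for gene desert sites (left of each pair) and all other annotated sites, by the mean level of the site over all 6 libraries. Above 50% the desert value is the lower of the pair in each range, at -3.18, -2.54 and -1.03 points.

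Within the deserts the difference was spread over the chromosomes. The desert mean was lower after SNL on 21 of 21 chromosomes, by -0.58 points on chromosome 18 to -3.33 points on chromosome 9, and on 12 of them the 3 SNL libraries lay below the 3 Sham libraries. The chromosomes share the same 6 libraries, so they are not separate tests. The like count was not made for the other annotated sites, whose mean was also lower after SNL (-0.85 points). It was -1.98 points upstream and -1.93 points downstream of the nearest start, and -1.64 points on chromosome X against -1.97 points on the autosomes. Sites at 500 to 600 kb averaged 77.56% ± 1.11 in SNL and 79.01% ± 0.39 in Sham libraries, and those beyond 1000 kb averaged 80.01% ± 0.95 in SNL and 82.45% ± 0.46 in Sham libraries. The differences over 4 ranges of distance (500 to 600, 600 to 800, 800 to 1000 and over 1000 kb) were -1.45, -1.92, -1.82 and -2.44 points, at 430, 583, 294 and 574 sites. The groups overlapped at 500 to 600 kb, at 800 to 1000 kb and on chromosome X, and the trend with distance was not tested. The 3 sites just inside the limit, at 500011 to 500384 bp, differed by 1.6, -0.4 and 1.3 points, and the 3 just outside, at 499189 to 499997 bp, by 3, 0 and -0.6 points.

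The same direction was seen at CpGs that the annotated table does not hold. There were 5804 further sites with 20 reads or more in all 6 libraries that must lie beyond 500 kb, because they are closer to a desert site than that site's distance exceeds the limit, and that were more than 1000 bp from every annotated site. Their intron and island flags are unknown. Their mean was 79.75%, 78.45% and 77.96% in SNL 1 to 3 and 80.06%, 80.44% and 81.01% in Sham 1 to 3, a difference of -1.78 points with no overlap. At 146145 other sites of this depth it was -0.91 points, with overlap. The gap between these sets was 12.19 ± 0.19 points in SNL and 13.07 ± 0.16 points in Sham libraries (exact two-sided permutation p = 0.1 for the change of -0.88 points, the smallest possible). At a median lowest coverage of 35 reads, 11 of the 5804 sites (0.19%) passed the test of single sites described next, against 0.233% of the 146145 other sites of like depth and 0.568% of all 210270 sites with 20 reads or more.

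Single sites were tested with a logistic model of methylated and unmethylated reads whose overdispersion was moderated across all annotated sites, adjusted by Benjamini-Hochberg over the 32674 sites and called at an adjusted p under 0.05. Of the 1881 desert sites 52 were called (2.76%), 50 lower and 2 higher after SNL, against 1.42% of all annotated sites (1.24% lower and 0.181% higher) and 1.34% of the sites outside deserts. With an offset fitted per library 28 desert sites were called (1.49%), 24 lower and 4 higher. Over all annotated sites 412 were called (1.26%), 238 lower and 174 higher. The desert share in either direction then stood close to the share over all sites, while losses made up more of the desert calls. The number rests strongly on single libraries. Leaving out SNL 1 gave 68 calls, against 25 for SNL 2 and 32 for SNL 3. Leaving out Sham 1 gave 34, against 25 for Sham 2 and 13 for Sham 3. Of the 52 sites 11 (10 of them lower) passed in all 6 of these fits. The desert share ran from 0.691 to 3.62% in them and that of all annotated sites from 0.395 to 1.6%, with the desert share higher in each. An unmoderated F test and limma called 0 of the 32674 sites, in deserts or elsewhere. At an unadjusted p under 0.05 stood 208 desert sites by the F test (11.1%, against 6.02% of all annotated sites), 288 by limma (15.3% against 10.7%) and 387 by the moderated test (20.6% against 13.1%). On simulated data more of the moderated test's calls were false than its threshold implies, so a single call is less certain than its adjusted p. No change smaller than 10 points was simulated, while most called desert losses were smaller than that.

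Over all desert sites, 1418 of 1881 (75.4%) had a lower mean after SNL, against 60.5% of the other annotated sites, and the median difference was -1.64 points against -0.494 points. In 428 desert sites (22.8%) the 3 SNL libraries lay below the 3 Sham libraries and in 31 (1.65%) above them. Over all annotated sites these shares were 13.2% and 4.64%. By the authors' deposited table, a q-value under 0.05 was given to 152 desert sites (8.08%), of which 148 were lower after SNL, against 4.54% of all annotated sites.

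**Figure D4:**
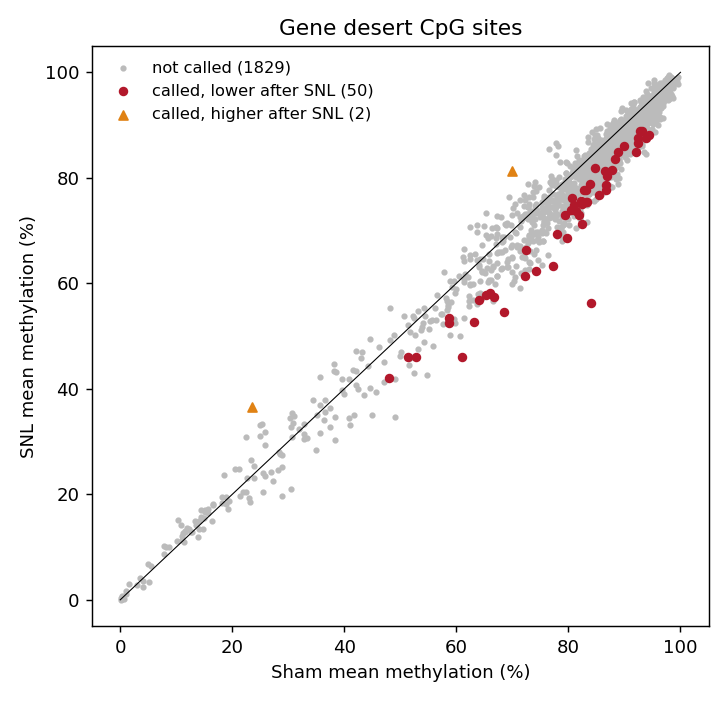
Mean methylation in SNL libraries (vertical axis, percent) against Sham libraries (horizontal axis, percent) for the 1881 gene desert sites, with the line of equal levels. The 50 sites called lower (red) lie below the line, mostly where Sham levels exceed 50%, and the 2 called higher (orange triangles) lie above it.

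The called losses were mostly small and at deeply read sites. Of the 50, 8 were under 5 points, 33 between 5 and 10 points and 9 larger. Their median was -6.53 points, against -10.5 points for the 355 called losses outside deserts. The median of the lowest coverage was 709 reads at the called desert sites and 176 reads at the others. Of the 132 desert sites where a library exceeded 1000 reads 25 were called (18.9%), and of the other 1749 sites 27 were (1.54%), against 6.42% and 1.05% of such sites outside deserts.

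The deepest loss in a desert was a single CpG on chromosome 5 at position 105052474 (rn4), 607.2 kb upstream of Rraga, a Rag GTPase that reports amino acid supply to mTORC1. Its level was 57.2%, 58.3% and 53.1% in SNL 1 to 3 and 87.2%, 82.6% and 82.1% in Sham 1 to 3, at 419 to 589 reads. The groups were more than 20 points apart at their nearest values. The difference was -27.8 points ± 2.3 (SE; adjusted p = 1e-06), where the next largest called loss was -15 points, and the call held whichever library was left out. The next CpG with 20 reads, 121 bp away, stood at 71.8% ± 8 in SNL and 85.4% ± 8.1 in Sham libraries (SD, n = 3 each; at least 41 reads) and did not pass (adjusted p = 0.392 in the test over all sites with 20 reads).

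The nearest listed transcripts of the other named losses belong to genes of varied function, and each loss had no overlap between the groups. Names follow the transcript accession, and whether the gene itself lies at the listed start was not checked. Near Aqp8, a water channel, a site 1018 kb downstream of the start (chromosome 1, position 183349514) stood at 70.4%, 69.1% and 68.6% in SNL and 77.8%, 78% and 78% in Sham libraries, at 1633 to 2514 reads. The Sham libraries thus differed by 0.2 points at most, and the loss of -8.6 points ± 0.5 (SE; adjusted p = 3.8e-05) passed in all 6 fits that left out a library. The site 1853 kb downstream of Dad1, a subunit of the oligosaccharyltransferase that glycosylates proteins, stood at 52.6%, 52.3% and 53.3% in SNL and 65.3%, 62.6% and 61.7% in Sham libraries (-10.4 points ± 1.1, adjusted p = 0.0023) and passed likewise. The site 1491.1 kb from the transcript NM_001107286 stood at 74.9%, 73.4% and 70.5% in SNL and 81%, 81% and 83.7% in Sham libraries (adjusted p = 0.00522) and lost its call without Sham 3.

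The remaining 8 named losses lost their call without 2 or more libraries. Near Lrrc4c, a synaptic adhesion protein that binds netrin-G1, a site 2083.4 kb downstream stood at 61.7%, 63.3% and 62.1% in SNL and 70.2%, 76.4% and 76% in Sham libraries (-11.8 points, adjusted p = 0.00859). It was lost without Sham 2 or Sham 3, as was the site near Triml2 (-11.2 points, adjusted p = 0.0146). The site near Skic8, a subunit of the SKI complex that feeds RNA to the exosome, differed by -11.1 points and was lost without 4 of the libraries. The sites near Ptprk (a receptor tyrosine phosphatase, -15 points), Eif4g2 (a translation initiation factor, -14), Krt18 (keratin 18, -8.9) and Grm7 (a presynaptic metabotropic glutamate receptor, -8) kept the call in 1 of the 6 fits. The site near Negr1, an IgLON adhesion protein (-9.2 points), kept it in 0. The adjusted p of these 5 sites ran from 0.031 to 0.0444.

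Both called gains lay close to the limit of 500 kb. The site 503.1 kb upstream of E2f3, a transcription factor of the cell cycle (chromosome 17, position 41667127), stood at 81.1%, 83.1% and 79.4% in SNL and 64.9%, 73.3% and 71.6% in Sham libraries (11.2 points ± 2.8, adjusted p = 0.00623) and passed in all 6 fits that left out a library. The site 506.2 kb upstream of Slc14a2, a urea transporter, stood at 37.6%, 35.6% and 36.5% in SNL and 17%, 31.1% and 22.4% in Sham libraries (13.1 points ± 4.1, adjusted p = 0.0394). Its Sham libraries spread over 14 points, and the call was kept in 1 of the 6 fits.

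**Figure D5:**
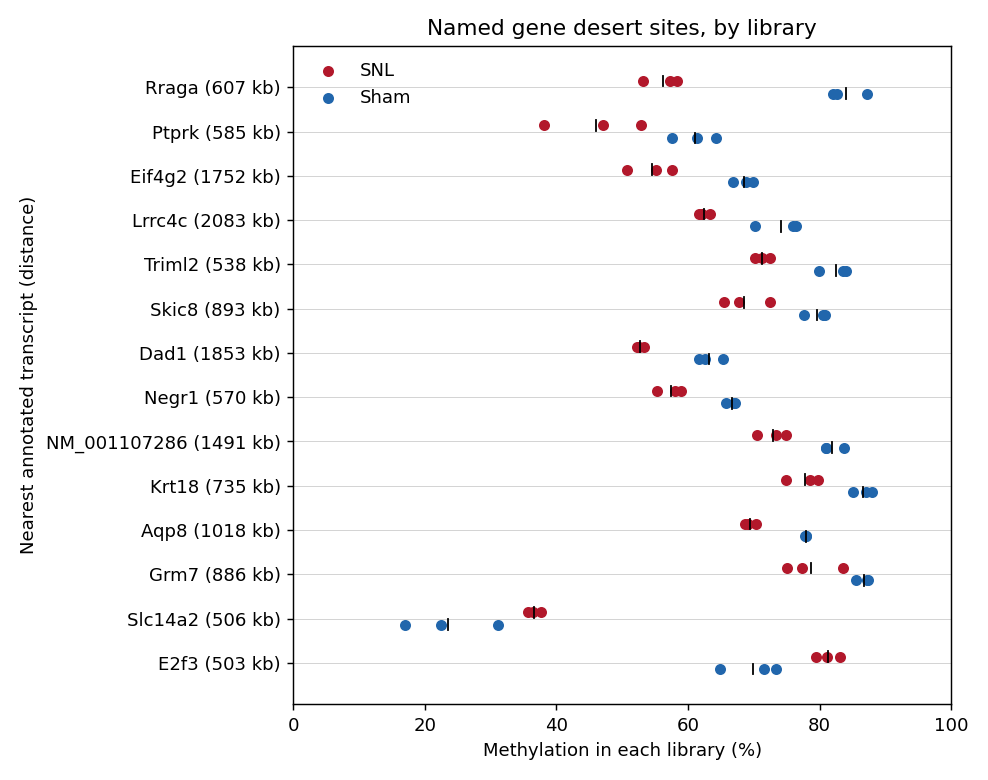
Methylation in percent in each library at the 14 named gene desert sites, labelled by the nearest annotated transcript and its distance (SNL above, Sham below, short lines for group means). No pair of groups overlaps, and the Rraga site has the widest separation, with 53.1 to 58.3% against 82.1 to 87.2%.

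CpGs beside the named sites were examined next. Within 1000 bp of the 12 named losses lay 15 other CpGs with 20 reads or more, 14 of them with a lower mean after SNL, but 0 passed the moderated test after adjustment (4 had an unadjusted p under 0.05). Of the 1881 desert sites 75.4% had a lower mean in any case, and of the 5804 shallower ones 64.6%. Near the 2 gains 4 of 5 such CpGs had a higher mean, and 0 passed (1 had an unadjusted p under 0.05). Of all 210270 sites with 20 reads or more 0.568% passed this test and 8.7% had an unadjusted p under 0.05. The sets of 15 and 5 CpGs are therefore too small to read anything from 0 calls. The reads were also summed over 1000-bp windows, of which 1204 held desert sites and no other annotated site. Of these, 40 were called (3.32%), 38 lower and 2 higher, against 1.85% of all 19108 windows. Of the called windows 19 with a loss held 2 or more sites, every site in them was lower after SNL, and in 5 of them no single site had passed. These windows were picked by their lower sum and their sites can share reads, so the like direction is in part built in. The clearest lay 762.8 kb from Edem1, which acts in the clearance of misfolded proteins from the endoplasmic reticulum (chromosome 4, 145112000 to 145112999). Its 3 sites, all called, summed to 83.4%, 83.3% and 82.2% in SNL and 88.2%, 86.9% and 88.1% in Sham libraries (adjusted p = 0.000694). A read that covers several CpGs enters such a sum several times. With library offsets 24 windows were called (1.99%), 20 lower and 4 higher. Over all windows 310 were called (1.62%), 167 lower and 143 higher. Leaving out SNL 1 gave 64 called windows, and leaving out SNL 2 or SNL 3 gave 16. For Sham 1, Sham 2 and Sham 3 the numbers were 20, 19 and 8. The number over all 19108 windows moved in the same direction in each of these fits. It was 354 with all libraries, 440 without SNL 1 and 161 to 203 without SNL 2, SNL 3, Sham 1 or Sham 2. It was lowest without Sham 3, so the swing was not particular to the deserts.

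Desert sites near one another also resembled each other in level. Over 904 pairs 2 to 50 bp apart the levels had a correlation of 0.82 across pairs, and the differences between groups one of 0.43. Over 373 pairs 51 to 1000 bp apart these were 0.81 and 0.19, and over 200 pairs 1001 to 10000 bp apart -0.1 and 0.11. The pairs share libraries and, when close, reads, so they are not independent.

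The stretches with most desert sites varied in their response. The 54 sites nearest to Tll1, a metalloprotease that processes procollagen, span positions 27608801 to 27918369 of chromosome 16. They averaged 80.82% ± 0.69 in SNL and 82.87% ± 0.37 in Sham libraries, 43 of the 54 were lower after SNL, and the groups did not overlap. The 24 sites next to them, nearest to Cpe (carboxypeptidase E, which trims neuropeptide precursors), averaged 78.69% ± 1.11 in SNL and 80.86% ± 1.36 in Sham libraries, with overlap. The 40 sites nearest to Psmd10 on chromosome X averaged 81.35% ± 1.51 in SNL and 83.09% ± 0.49 in Sham libraries, also with overlap. The 19 sites nearest to the transcript NM_001107286 averaged 84.55% ± 0.34 in SNL and 86.69% ± 0.19 in Sham libraries, with no overlap. By contrast, the 20 sites near Gna12, a G protein subunit, averaged 89.99% ± 0.74 in SNL and 90.21% ± 0.18 in Sham libraries. The 19 near Pcdh7, a protocadherin, averaged 88.52% ± 0.88 in SNL and 89.19% ± 0.15 in Sham libraries. The 15 sites near Vrk1, a nuclear kinase, averaged 63.86% ± 3.04 in SNL and 64.4% ± 1.47 in Sham libraries. The 20 sites near Cntnap5a, a neurexin family protein, averaged 84.18% ± 1.66 in SNL and 86.81% ± 2.79 in Sham libraries and held 2 called losses, of -14.1 and -4.4 points.

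Deserts are known to flank developmental regulators and long neuronal genes, so the sites were also grouped by the family of the nearest gene, picked by symbol. Of 336 sites nearest to 59 adhesion and synaptic genes 8 were called, all lower (2.38%), against 2.76% of all desert sites and 1.81% of sites with such a nearest gene outside deserts. With library offsets 4 of the 8 passed. The group mean was 80.73% ± 1.1 in SNL and 82.94% ± 0.62 in Sham libraries, and the median difference was -1.97 points, against -1.64 points over all desert sites. Among them, besides sites given above, were sites near Tenm2, a teneurin (-5.3 points), and Cdh10, a cadherin (-5.1 points). Of 126 sites near 28 developmental transcription factor genes 4 were called, all lower (3.17%), against 1.74% of sites with such a nearest gene outside deserts. They were a pair 20 bp apart near Tbx3 (-6 and -6.1 points) and single sites near Foxk1 (-7.4) and Gata3 (-6.2). With library offsets 0 of these 4 passed, and each passed in 1 to 3 of the 6 fits that left out a library. The mean of this group was 75.28% ± 0.98 in SNL and 76.72% ± 0.75 in Sham libraries, and the groups overlapped.

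Of 51 sites near 11 ion channel and neurotransmitter receptor genes 3 were called, all lower (5.88%), while of 774 sites with such a nearest gene outside deserts 2 were (0.258%). This contrast rests on 3 sites, its difference was not tested, and the share over all desert sites was 2.76%. With library offsets 2 of the 3 passed. They lay near the kainate receptor gene Grik2 (74.8% ± 0.5 in SNL and 81% ± 1.3 in Sham libraries, adjusted p = 0.0076), near Grm7, given above, and near the GABA receptor subunit gene Gabrg1 (75.5% ± 1.5 in SNL and 83.1% ± 2.6 in Sham libraries, adjusted p = 0.0354). Of the 6 fits that left out a library the Grik2 site passed in 5, and the Grm7 and Gabrg1 sites in 1. The mean of the 51 sites was 83.33% ± 0.9 in SNL and 85.87% ± 0.51 in Sham libraries, with no overlap. Of the 4 sites near ribosomal protein genes and the 1 near an olfactory receptor gene 0 passed the moderated test (2 and 0 had an unadjusted p under 0.05). A gene named here is the nearest listed start at over 500 kb, and no link between the site and the gene was measured. The name follows the transcript accession, and whether that gene lies at the listed start was not checked.

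Few desert CpGs read as unmethylated. Only 13 desert sites had a mean level under 5%, and 54, in 29 windows, had one under 20%. Of the 54, 0 passed the moderated test after adjustment (2 had an unadjusted p under 0.05, against 13.1% of all annotated sites of any level). Of the 5023 other annotated sites under 20% only 0.458% passed, so 54 sites are too few to show a difference. The lowest were near Pcdh19 (0% in SNL and 0.2% ± 0.3 in Sham libraries), Frk, Tyrp1, Barhl2 and Cntnap5b, all under 1% in both groups. Several of them stood alone among methylated neighbours, and whether these rats carry a C at such positions was not checked. The Frk site at position 39483089 of chromosome 20 was at 0.3% ± 0.2 in SNL and 0.2% ± 0.1 in Sham libraries, while the CpG 6 bp further was at 92.3% ± 1.4 in SNL and 94.3% ± 1.3 in Sham libraries. There were 10 pairs within 50 bp and over 60 points apart, among them pairs near Cntnap5b, Flrt2, Tyrp1 and Ntrk3. Some pairs share their low CpG, as near Frk and Cntnap5b, so the low CpGs were fewer than the pairs. In the pair near Psmd10 the lower CpG was at 18.3% ± 4.6 in SNL and 18.1% ± 4.5 in Sham libraries.

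The window with most desert sites was of another kind. It lies 2481.7 kb from Tubgcp5, a subunit of the gamma-tubulin complex (chromosome 1, positions 104689615 to 104689729), and its 14 CpGs within 114 bp all had a mean level between 5.9 and 18.8% without an island flag. Their summed level was 12.3%, 10% and 18.3% in SNL 1 to 3 and 20.2%, 9.6% and 8.7% in Sham 1 to 3, so that SNL 3 and Sham 1 were high at this window and the groups overlapped (13.5% ± 4.3 in SNL and 12.8% ± 6.4 in Sham libraries, adjusted p = 0.973). The sites farthest from any listed start, 5 sites at 3323.6 to 3688.9 kb near Cdh10, RGD1561230 and Arap2, stood between 77 and 98% in both groups, differed by -1.6 to 2.2 points and were not called.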

How the data were processed

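RRBS reads were single ends of 50 bases, per the labels' protocols. The submitters' processing notes name Bismark 0.18.1, Bowtie2, methylKit 1.3.3 and the assembly rn4, while the labels' protocol names a human assembly. Coordinates are given here as rn4. The authors deposited coverage as a read count with the percent of reads with C or T per CpG, and a table with percent methylation, p-value, q-value and a difference score in percentage points, which equals that of pooled reads. Methylated reads were recovered here as coverage times percent, and match the table's percents to 5 decimals. The settings of these tools are not stated. No genome of this assembly was used, so no site sequence is shown.

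Each site was fitted by logistic regression on group. The overdispersion (4 residual degrees of freedom) was moderated with limma's squeezeVar, its prior taken from sites with a spread above 0 (a choice made after seeing the data), kept at 1 or more, and tested with a two-sided F test. The test was tested on simulated data, where it recovered most of the large changes but made more false calls than its threshold implies. Class means were compared by exact permutation. Differences are means of library percents, SNL minus Sham. Gene symbols came by accession from a RefSeq table of GRCr8 (434 of 467 desert transcripts, 93.8% of sites), for names only.

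Named sites are called sites without overlap, up to 12 per direction, 1 per transcript (lowest p). Also named are the farthest, lowest and limit sites, the richest transcripts and windows, and up to 3 sites per gene list. The members and lists were chosen with earlier results of these data known. The Edem1 window, the pairs of unequal level and the called list sites were chosen after their values were seen. Alternatives were other coverage, distance, library, scaling, pairing and test settings. Fits ran in R 4.3.3 (limma 3.58.1), and summaries in Python 3.11.15.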

Additional observations from a re-analysis of the deposited data

How the results depend on the processing

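The desert mean stayed lower after SNL under each alternative run, from -2.44 points beyond 1000 kb to -1.78 points beyond 300 kb and at the sites outside the table (that set and the 2 other priors below were chosen after seeing the data), and from -2.53 to -1.55 points without each library in turn. The change of the gap to all other sites ranged from -1.55 points (beyond 1000 kb) to -0.97 points (beyond 300 kb), and from -1.25 to -1.02 points without each library. That of the gap to sites at 100 to 500 kb ranged from -1.17 to -0.61 points, and from -0.75 to -0.63 points without each library. The groups did not overlap in the desert mean or in these gaps, so leaving out a library could not reverse their sign. The higher level of desert sites than of sites at 100 to 500 kb was 3.62 to 3.79 points without each library, where 5 libraries cannot give an exact permutation p under 0.0625.

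The count of 52 called desert sites was 13 to 68 without each library (0.691 to 3.62%, against 0.395 to 1.6% of all annotated sites). It was 28 with library offsets (1.49% against 1.26%) and 15 with a replicate block (0.797% against 0.404%). When all 210270 sites with 20 reads were fitted, 82 desert sites were called (4.36%). The share over all of these, most below 100 reads in some library, was 0.568%. Beyond 300 kb 84 of 3565 sites were called (2.36%), and beyond 1000 kb 22 of 574 (3.83%), against 1.42% of all annotated sites. The authors' deposited q-value gave 152 (8.08% against 4.54%). Calls with a difference of at least 10 points were 11 of the 1881 desert sites (0.585%) and 215 of the 30793 others. At this limit the desert share was therefore not above that of the other sites. The unmoderated F test and limma gave 0 (208 and 288 at an unadjusted p under 0.05). The count was 42 with a prior that follows the methylation level (2.23%, against 1.19% of all annotated sites). With sites of zero spread in the prior it was 45 (2.39% against 1.27%). The 40 called windows of 1204 were 8 to 64 without each library, 24 with library offsets and 23 with a replicate block. They were 1 by limma and 0 by the F test (177 at an unadjusted p under 0.05). Of all 19108 windows 354 were called, 310 with library offsets and 197 with a replicate block. Limma called 5 of all windows and the F test 0 (1545 at an unadjusted p under 0.05). Over all windows the called number was likewise highest without SNL 1 and lowest without Sham 3 among the fits that left out a library. Each named site kept its sign without each library, which was fixed in advance because named sites were picked for no overlap between the groups. The cause of the lost calls was not tested.

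The labels number the libraries 1 to 3 in both groups. Deviations from the group mean had correlations of -0.05, 0.26 and -0.14 between same-numbered libraries. The highest of all pairs was 0.34, between SNL 3 and Sham 1. With 3 libraries per group such correlations cannot show whether same-numbered libraries share a rat. A replicate block kept the mean differences, with an exact p of 0.25, the smallest that 3 pairs allow, and 4 of the 14 named calls. No block was run for levels compared within libraries.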
